A study of Mus musculus with 20 samples.

Results

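Thyroid hormone reaches hypothalamic targets through transport, activation and nuclear reception, and 7 genes of this route were followed in the arcuate nucleus (ARC) of mice given corticosterone (Cort). They were chosen by name for their role, out of 22048 genes in the count tables, and all 7 were present there. Slco1c1 encodes a thyroxine transporter, Dio2 and Dio3 the deiodinases that activate and inactivate the hormone, Crym a cytosolic T3-binding protein, Thra and Thrb the nuclear receptors, and Hr a corepressor whose gene responds to T3. Male C57BL6/J mice, 10 weeks old at the start, drank Cort at 75 µg/ml in 1% ethanol or the ethanol vehicle alone for 2 days or 4 weeks. Each of the 4 groups held 5 samples of laser-captured ARC. The 4 week mice were fasted for 16 h and refed for 24 h while treatment went on, and the 2 day mice were not. Section thickness, slide type, laser system and sequencer also differed between the datasets, so treatment length cannot be told apart from these. Total counts ran from 2487063 to 5748223 per sample at 2 days and from 1065776 to 5196364 at 4 weeks. Levels are given as CPM, the count scaled to library size. A count of 3, the floor used here, was worth 0.522 to 1.21 CPM in the 2 day samples and 0.577 to 2.81 CPM in the 4 week samples.

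The thyroid gland releases mostly thyroxine (T4), which enters the brain through carriers such as OATP1C1, the product of Slco1c1. In the mediobasal hypothalamus type 2 deiodinase converts T4 to the active hormone T3 in tanycytes, the glia that line the floor of the third ventricle, and in astrocytes, whereas type 3 deiodinase destroys T3. T3 then acts in neurons through receptors that bind DNA with retinoid X receptors and exchange corepressors for coactivators.

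As outliers in principal components of the whole transcriptome, the study set aside 3 samples per dataset. In the 2 day dataset these were Cort sample C08 with vehicle samples C07 and C09. In the 4 week dataset they were Cort sample C06 with vehicle samples C01 and C05. Main comparisons therefore hold 3 vehicle and 4 Cort samples, and values with all 5 per group are given beside them. Arcuate neuropeptide genes were present in every sample, with Agrp at 122 CPM or more in the 2 day samples and 18.03 CPM or more in the 4 week samples. The summed level of 3 genes of the adjacent ventromedial nucleus was at most 33 CPM in any 2 day sample and 11.7 CPM in any 4 week sample. In dissected tissue, fewer cells of a type and less RNA per cell cannot be told apart.

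Dio2 had the lowest P of the 6 genes tested at 2 days and was the gene the study followed, so the 250 bases upstream of its RefSeq start are shown, with the cyclic AMP response element in capitals. The window lies at chr12:90739039-90739288 on the minus strand of GRCm38.p6 and is written 5′ to 3′ in the direction of transcription.
Dio2: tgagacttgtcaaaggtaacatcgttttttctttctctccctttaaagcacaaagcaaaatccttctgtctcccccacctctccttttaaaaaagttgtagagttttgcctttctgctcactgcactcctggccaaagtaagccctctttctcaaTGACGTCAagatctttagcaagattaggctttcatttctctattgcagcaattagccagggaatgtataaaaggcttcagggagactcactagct
The element TGACGTCA, a palindrome, began at position -95 counted from the start. It was present in 1.55% of all 32851 upstream windows of the same length. Neither AGAACA, the core of glucocorticoid receptor sites, nor AGGTCA, the core of thyroid hormone receptor sites, was found in this window on either strand, and these were present in 16.1% and 14% of all windows. RefSeq windows were matched for 4 of the 7 genes, with 5 windows in all because Thrb has more than 1 start. Of these, 1 Thrb window held AGGTCA and the other held AGAACA, and the Slco1c1 and Dio3 windows held none of the 3 motifs. A match is a description of the letters and was not tested for binding.

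Levels of different genes were compared per kilobase of exon, using the exon union of each gene in GENCODE vM21. In the 5 vehicle samples at 2 days, Thra was highest at 56.7 ± 6.79 CPM per kb (SD, n = 5). Thrb followed at 18.3 ± 3.09 CPM per kb and its range did not overlap that of Thra. Dio2 came next at 12.9 ± 12.2 CPM per kb, and its range overlapped that of Thrb. Crym, Hr and Slco1c1 stood at 3.97 ± 2.84, 3.72 ± 2.78 and 3.71 ± 0.973 CPM per kb and could not be ordered, since their ranges overlapped. Dio3 was lowest, with a mean of 0.1 CPM per kb.

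The order was less clear in the vehicle samples of the 4 week dataset. Dio2 at 26.6 ± 13.1 CPM per kb (SD, n = 5), Thra at 25.8 ± 11.4 and Thrb at 19.0 ± 10.6 overlapped each other. Slco1c1 at 8.77 ± 9.92, Crym at 4.44 ± 4.76 and Hr at 1.13 ± 2.12 CPM per kb overlapped their neighbors too. Dio3 was listed at 0 in all 5. The datasets were prepared differently, and these levels were not tested against each other.

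**Figure D1:**
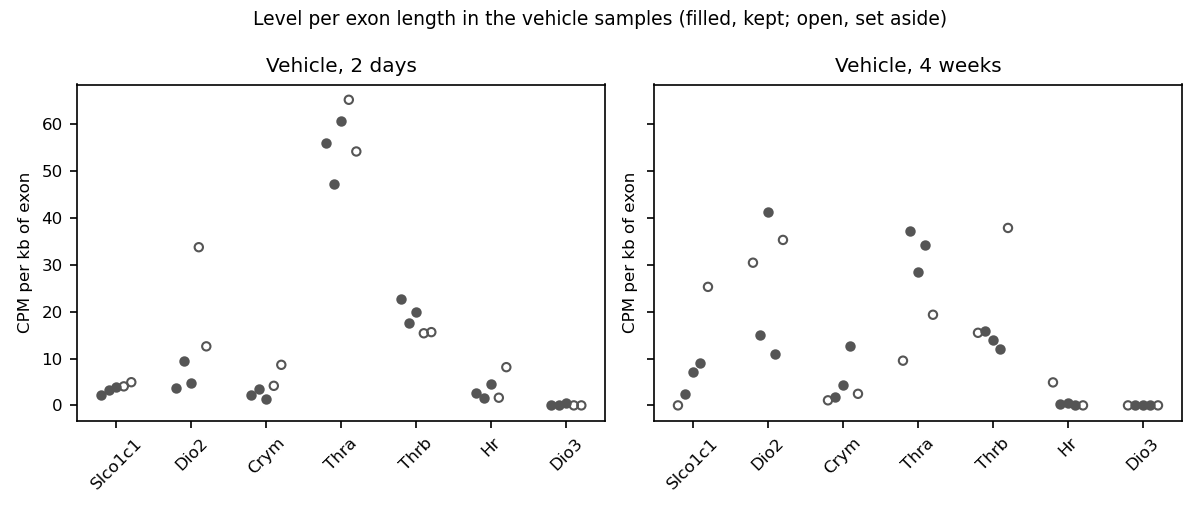
Level of the 7 genes in the vehicle samples, in CPM per kilobase of exon, at 2 days and 4 weeks. Each point is 1 sample, filled where the study kept it and open where it was set aside; Thra stood apart at 2 days, with a mean of 56.7 CPM per kb, and overlapped Dio2 and Thrb at 4 weeks.

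Of the 7 genes, 6 passed the filter on low counts in each dataset and Dio3 did not. By edgeR's quasi-likelihood test with Benjamini-Hochberg adjustment over all genes tested, none of the 6 had Padj below 0.1 in either dataset. None of the 6 had groups that did not overlap at 2 days, against 6.63% of all genes. The background of calls was low, with 8 of 12309 genes (0.065%) called at 2 days and 0 of 11211 (0%) at 4 weeks. At 4 weeks 549 genes had an unadjusted P below 0.05, and DESeq2 called 68. At an unadjusted P below 0.01, 1 of the 6 genes (Dio2) passed at 2 days, against 1.47% of all genes. At 4 weeks none of the 6 did, against 1.06% of all genes, and 1 (Hr) had P below 0.05, against 4.9% of all genes, but Hr passed the filter on low counts only through its Cort samples and that count is no support.

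**Figure D2:**
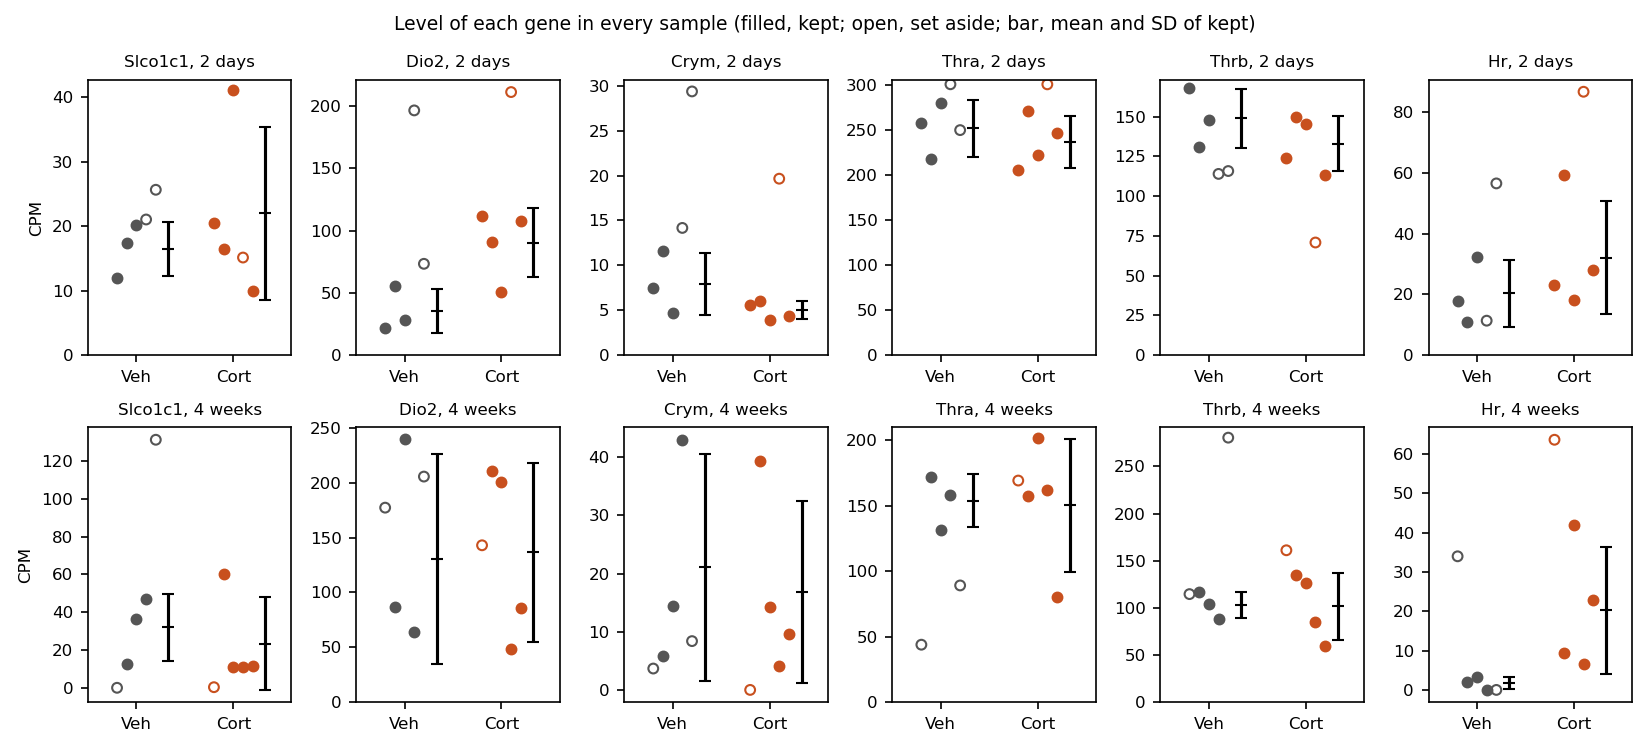
CPM of 6 genes in every sample, by treatment, at 2 days (top) and 4 weeks (bottom). Filled points are the samples kept, open points those set aside, and bars give the mean and SD of the samples kept; only the Hr groups at 4 weeks were separate among the samples kept, and the open vehicle point at 34.0 CPM fell inside the Cort range.

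Slco1c1 (chr6:141524368-141570177, plus strand) is expressed by brain endothelium and by astrocytes and tanycytes. At 2 days the vehicle samples kept had 11.9, 17.5 and 20.1 CPM and those set aside 21.1 and 25.7 CPM. The Cort samples kept had 20.5, 16.5, 41.1 and 9.94 CPM and the one set aside 15.2 CPM. The groups overlapped, and the sample highest in the dataset, C06, was 1 of the Cort samples. The fitted log2 fold change was 0.43 (SE 0.47, edgeR Padj = 0.948), and it was -0.06 without C06.

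At 4 weeks Slco1c1 had 12.5, 36.6 and 47.0 CPM in the vehicle samples kept and 0 and 131 CPM in those set aside. The Cort samples kept had 60.2, 10.95, 10.8 and 11.7 CPM and the one set aside 0.315 CPM. All but 1 of the 4 Cort samples kept lay close together and below all vehicle samples kept, while C07 lay above them. The log2 fold change was -0.46 (SE 0.88, edgeR Padj = 0.993) and became -1.53 without C07.

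The summed level of 8 endothelial markers was 182 to 254 CPM in the vehicle samples and 228 to 291 CPM in the Cort samples at 2 days, and 83.6 to 277 and 91.9 to 505 CPM at 4 weeks. Their part in the level of Slco1c1 was not tested.

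Dio2 (ENSMUSG00000007682, chr12:90724552-90738438, minus strand) encodes the enzyme that makes T3 within the brain, and it was the gene the study itself followed from these samples, so its value here is not independent evidence. At 2 days the vehicle samples kept had 22.1, 55.2 and 28.3 CPM, from 89, 256 and 139 counts. The Cort samples kept had 111, 90.9, 50.7 and 108 CPM, from 653, 270, 284 and 271 counts. All but 1 of the 4 Cort samples kept lay above every vehicle sample kept, and the exception, C06 at 50.7 CPM, lay below vehicle sample C04. Vehicle samples kept averaged 35.2 ± 17.6 CPM (SD, n = 3). Cort samples kept averaged 90.2 ± 27.8 CPM (SD, n = 4).

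The fitted difference in Dio2 at 2 days was 2.57-fold, a log2 fold change of 1.36 (SE 0.33). Its unadjusted P from edgeR was 0.000572, which ranked 15 of 12309 genes, and its Padj was 0.425. DESeq2 gave a log2 fold change of 1.37 with Padj = 0.0372, so the call depended on the tool. By the exact permutation test on log2 CPM, 2-sided, p was 0.114, and the smallest p that 3 against 4 samples allow is 0.0571.

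The direction rests on the sample names of the raw count table. In the authors' normalized table for 2 days, the headers of 5 of 7 columns did not match the raw table, in that each held counts listed there under a different sample. In header order, that table held raw C02, C04 and C05, the vehicle samples kept, then raw C01, C03, C06 and C10, the Cort samples kept. Its headers thus put samples that the raw table names vehicle and Cort together in each group. With the names of the raw table the mean log2 CPM of Dio2 was 6.44 with Cort and 5.05 with vehicle, and with those of the normalized table it was 5.44 and 6.37, a difference of -0.93 (exact permutation p = 0.229). Fkbp5, which glucocorticoids induce, differed by 1.45 (Cort minus vehicle) under the raw names and by -0.53 under the others. Fam107a, also induced, differed by 0.96 and -0.11. The raw names are used throughout.

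The set-aside samples changed this picture. Vehicle samples C07 and C09 had 196 and 73.3 CPM of Dio2 and Cort sample C08 had 211 CPM. With all 5 samples per group the means were 75.1 ± 70.9 and 114 ± 59.2 CPM (SD, n = 5), the groups overlapped and the log2 fold change was 0.62 (SE 0.52, edgeR Padj = 0.982).

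The summed level of 12 tanycyte markers at 2 days was 424, 554 and 540 CPM in the vehicle samples kept and 875 and 1005 CPM in those set aside. In the Cort samples it was 426, 382, 438 and 592 CPM in those kept and 718 CPM in C08. The set-aside samples were thus the highest in tanycyte markers, and of these C07 and C08 were also the highest in Dio2 while C09 was not. Vehicle and Cort samples kept overlapped in the tanycyte markers. In the samples kept, 7 arcuate neuron markers summed to 879 to 1372 CPM with vehicle and 1496 to 1985 CPM with Cort, without overlap. For 5 oligodendrocyte markers the sums were 337 to 414 and 417 to 586 CPM, also without overlap, while astrocyte, endothelial and neuronal sums overlapped. The arcuate list includes the peptide genes Agrp and Npy, so its sum need not follow cell number. Of its 6 genes tested, 1 passed Padj below 0.1, higher with Cort, against 0.065% of all genes. The part of any of these lists in the level of Dio2 was not tested. Of the 9 tanycyte markers tested at 2 days, none had an unadjusted P below 0.05 and the median log2 fold change was 0.08, against 0.02 over all genes. Rax, a defining tanycyte factor, was near 0, with 0 to 1.82 CPM over the 10 samples.

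Within each sample, Dio2 was set against the mean log2 CPM of the tanycyte markers, a ratio that does not depend on scaling between samples. At 2 days the log2 ratio was 1.20, 1.81 and 0.92 in the vehicle samples kept and 3.06, 3.21, 2.13 and 2.71 in the Cort samples kept, and the groups did not overlap. The difference was 1.47, and the exact permutation p of 0.0571 was the smallest this design can give (0.286 adjusted over 10 ratios and datasets). With all 10 samples the groups overlapped, because vehicle sample C07 had a ratio of 3.14. The difference was then 1.09 (exact permutation p = 0.0476, 0.278 adjusted). With the tanycyte markers as a covariate over all 10 samples, the log2 fold change of Dio2 was 1.30 (SE 0.31, edgeR Padj = 0.253).

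**Figure D3:**
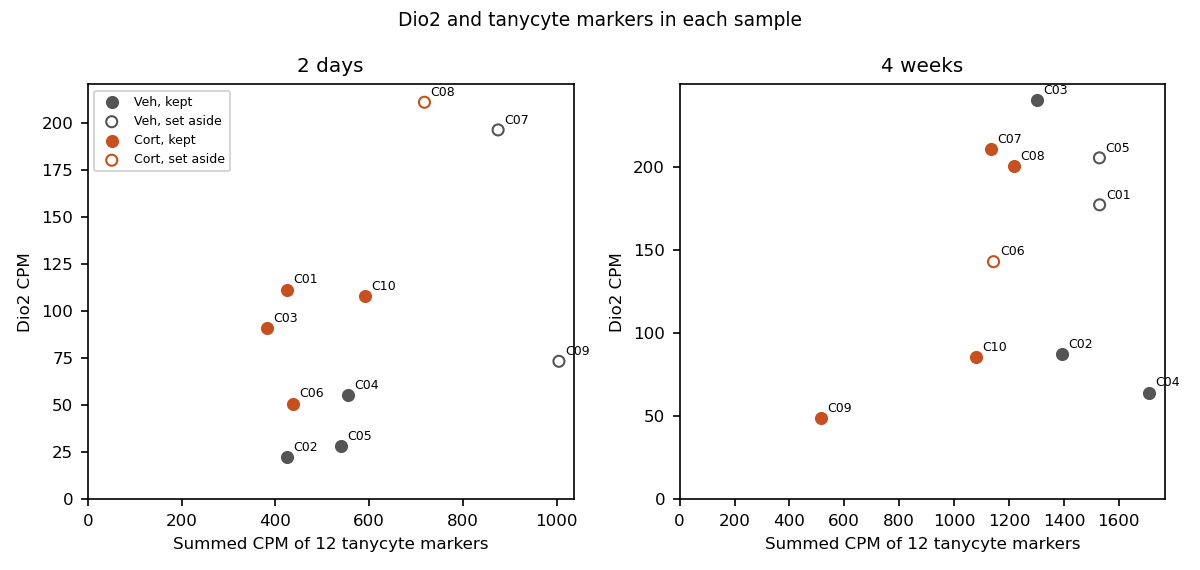
Dio2 CPM against the summed CPM of 12 tanycyte markers, 1 point per sample, at 2 days and 4 weeks. Filled points are samples kept and open points samples set aside; at 2 days the set-aside samples C07, C08 and C09 had the highest marker sums, 718 to 1005 CPM.

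Astrocytes also express Dio2, and 10 astrocyte markers summed to 5234 to 9010 CPM in vehicle samples and 4462 to 6458 CPM in Cort samples at 2 days. The log2 ratio of Dio2 to the astrocyte mean differed by 1.45 between the groups kept and by 0.99 with all 10 samples, and the groups overlapped in both (exact permutation p = 0.114 and 0.111). The ratio of Dio2 to Slco1c1, which the same glia express, differed by 1.14 (exact permutation p = 0.229).

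At 4 weeks Dio2 had 87.2, 240 and 64.0 CPM in the vehicle samples kept and 177 and 205 CPM in those set aside. The Cort samples kept had 211, 200, 49.0 and 85.5 CPM and the one set aside 143 CPM. High and low samples were found in both groups, whose ranges nearly coincided. The log2 fold change was 0.05 (SE 0.54, edgeR Padj = 0.995), and vehicle averaged 130 ± 95.6 CPM (SD, n = 3) against 136 ± 81.4 CPM for Cort (SD, n = 4).

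At 4 weeks the tanycyte markers summed to 1302 to 1709 CPM in the 5 vehicle samples and 515 to 1220 CPM in the 5 Cort samples, and these ranges did not overlap. Of 10 tested, none passed Padj below 0.1 and 2 had an unadjusted P below 0.05, both lower, against 4.9% of all genes. Other lists also shifted in the samples kept. Astrocyte markers summed to 3312 to 3337 CPM with vehicle and 3569 to 4942 CPM with Cort, and 7 arcuate neuron markers to 824 to 1272 and 363 to 755 CPM. For 8 neuronal markers the sums were 4533 to 5060 CPM with vehicle and 5248 to 6089 CPM with Cort. The arcuate list includes Agrp and Npy, so its sum need not follow cell number. The part of these lists in the level of Dio2 was not tested. Gpr50, an orphan receptor of tanycytes, had a log2 fold change of -1.04 (SE 0.33, edgeR Padj = 0.902). The log2 ratio of Dio2 to the tanycyte mean differed by 0.74 in the samples kept (exact permutation p = 0.229). With the tanycyte markers as a covariate over all 10 samples, the log2 fold change of Dio2 was 0.13 (SE 0.49), against -0.19 (SE 0.45) without it. Because the marker sums were lower with Cort, the covariate and the treatment cannot be fully told apart.

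The difference in Dio2 between vehicle and Cort at 4 weeks minus that at 2 days was -1.31 on the log2 scale (SE 0.70), and the interaction was not called (edgeR Padj = 0.828). It was -0.52 without 4 week vehicle sample C03 and -0.79 with all 20 samples. Over all 12777 genes tested, 0.0157% had an interaction Padj below 0.1. A distinct Dio2 response at the separate treatment lengths was therefore not shown.

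Dio3 (chr12:110279068-110281097, plus strand), which encodes the inactivating enzyme, was almost undetected. Vehicle sample C05 at 2 days had 5 counts, or 1.02 CPM, and the other 19 samples had 0. Counts of 0 allow a level of up to 1.21 CPM at 2 days and 2.81 CPM at 4 weeks in the shallowest sample, so a lower level could not be seen at this depth. Dio1, the deiodinase of liver and kidney, had 0 counts in every sample.

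Crym (chr7:120186380-120202111, minus strand) encodes mu-crystallin, which holds T3 in the cytosol. At 2 days it had 7.46, 11.6 and 4.68 CPM in the vehicle samples kept and 14.2 and 29.4 CPM in those set aside. In Cort samples it had 5.63, 6.06, 3.93 and 4.38 CPM in those kept and 19.7 CPM in C08. The groups overlapped through vehicle sample C05. The log2 fold change was -0.65 (SE 0.69, edgeR Padj = 0.948), and -0.74 (SE 0.60) with all samples.

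At 4 weeks Crym ranged from 3.67 to 43.0 CPM in the 5 vehicle samples and from 0 to 39.4 CPM in the 5 Cort samples. Each group held 1 sample far above the rest, C04 with vehicle and C07 with Cort, and the others were at 14.5 CPM or less. The log2 fold change was -0.33 (SE 1.04, edgeR Padj = 0.995) and turned to 0.73 without C04.

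Thra (chr11:98740638-98769006, plus strand) and Thrb (chr14:17660261-18038090, plus strand) encode the receptors. Thra at 2 days had 258, 218 and 280 CPM in the vehicle samples kept and 206, 271, 223 and 247 CPM in the Cort samples kept. Its log2 fold change was -0.08 (SE 0.15, edgeR Padj = 0.970). Thrb had 168, 131 and 148 CPM with vehicle and 124, 150, 145 and 113 CPM with Cort, with a log2 fold change of -0.15 (SE 0.18, edgeR Padj = 0.949). Their SEs were the smallest among the 6 genes at 2 days, and vehicle and Cort overlapped for both.

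At 4 weeks Thra had 172, 132 and 158 CPM in the vehicle samples kept and 157, 202, 162 and 80.2 CPM in the Cort samples kept, a log2 fold change of -0.05 (SE 0.36, edgeR Padj = 0.995). Thrb had 117, 104 and 88.7 CPM with vehicle and 135, 126, 85.0 and 59.9 CPM with Cort, a log2 fold change of -0.03 (SE 0.42, edgeR Padj = 0.996). The receptors thus overlapped between groups at both times. In the set-aside vehicle samples C01 and C05 they parted, with Thra at 44.1 and 89.3 CPM and Thrb at 115 and 280 CPM.

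The within-sample log2 ratio of Thra to Thrb was 0.76 ± 0.15 (SD, n = 3) with vehicle and 0.83 ± 0.22 (SD, n = 4) with Cort at 2 days (exact permutation p = 0.800). At 4 weeks it was 0.57 ± 0.24 and 0.56 ± 0.31 (exact permutation p = 0.914). With all 10 samples the 4 week difference was 0.72 (exact permutation p = 0.317), because the ratio was -1.37 and -1.64 in C01 and C05. Of the exon bases of Thra, 5.70% also lie in exons of Nr1d1 on the opposite strand, and the library kit does not mark strand, so reads from that stretch cannot be told apart.

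Hr (ENSMUSG00000022096, chr14:70552212-70573548, plus strand) is a classic target of T3 in the brain. At 2 days it had 17.9, 10.8 and 32.3 CPM in the vehicle samples kept and 23.0, 59.3, 18.0 and 27.8 CPM in the Cort samples kept. The set-aside samples had 11.3 and 56.5 CPM with vehicle and 86.6 CPM with Cort. The groups overlapped, and the log2 fold change was 0.66 (SE 0.46, edgeR Padj = 0.924), or 0.75 (SE 0.47, edgeR Padj = 0.958) with all samples. It fell to 0.18 without Cort sample C03 and was 1.17 without vehicle sample C05.

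At 4 weeks Hr was near the floor in the vehicle samples kept, with 6, 8 and 0 counts, or 2.03, 3.22 and 0 CPM. The Cort samples kept had 46, 176, 13 and 74 counts, or 9.49, 41.9, 6.70 and 22.8 CPM. These groups did not overlap, as was so for 6.53% of all genes tested. The gene passed the filter on low counts only through the Cort samples, so a difference was built into its being tested. The log2 fold change was 3.48 (SE 1.44, edgeR Padj = 0.993), and its size depends on the prior count because 1 vehicle sample had 0.

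The set-aside samples broke the separation of Hr. Vehicle sample C01 had 34.0 CPM and C05 had 0, while Cort sample C06 had 63.6 CPM. With all samples the log2 fold change was 1.90 (SE 1.30, edgeR Padj = 0.995) and the exact permutation test gave p = 0.0476. Set against 8 pan-neuronal markers within each sample, the log2 ratio of Hr differed by 3.0 in the samples kept (exact permutation p = 0.0571, the smallest possible, 0.286 adjusted) and by 2.89 with all 10 (p = 0.0556, exact permutation). With a prior count of 0.5 the difference in the samples kept was 3.79, so the size of this ratio depends on the prior count too. The neuronal markers summed to 4268 to 5631 CPM in vehicle and 5248 to 6268 CPM in Cort samples at 4 weeks. In the samples kept these sums did not overlap, at 4533 to 5060 CPM with vehicle and 5248 to 6089 CPM with Cort. The Hr difference at 4 weeks minus that at 2 days was 2.82 (SE 1.23, edgeR Padj = 0.750). These Hr differences all draw on the 4 week Cort samples through which the gene passed the filter, so none is separate support.

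**Figure D4:**
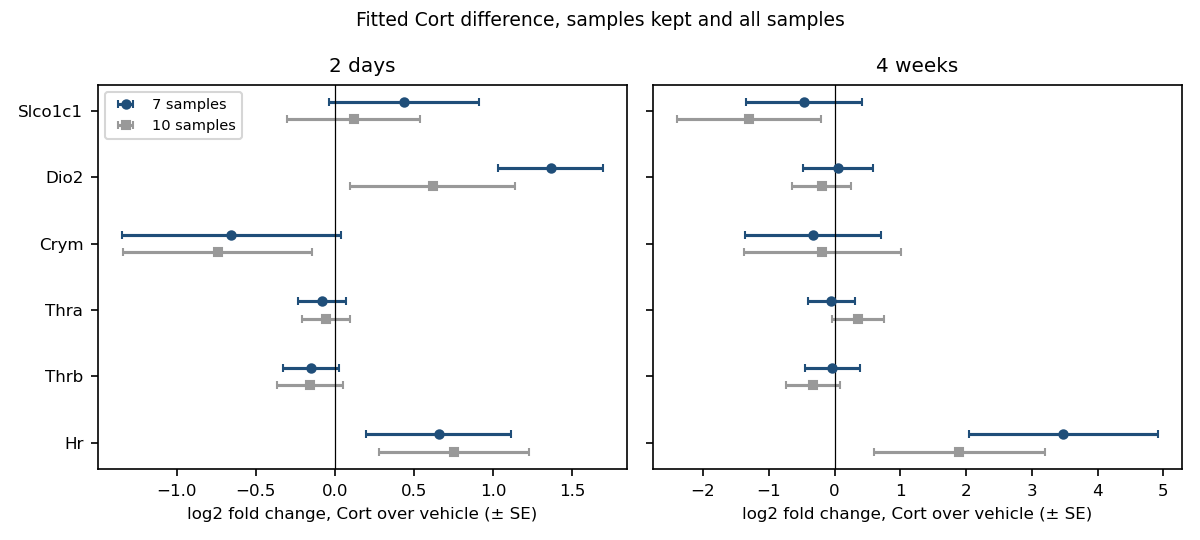
Fitted log2 fold change of Cort over vehicle with its SE for 6 genes, from the 7 samples kept (circles) and all 10 samples (squares). Dio2 at 2 days was 1.36 without and 0.62 with, and Hr at 4 weeks 3.48 without and 1.90 with, the set-aside samples.

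The wider pathway gave few differences. At an unadjusted P below 0.05, which 5.95% of all genes passed at 2 days, 1 of 10 transporter and binding genes tested was found, Slc7a8, an amino acid carrier that also moves T3 (log2 fold change -0.74, edgeR Padj = 0.812). The median of the list was -0.06, against 0.02 over all genes. At 4 weeks none of 9 reached P below 0.05 and the median was 0.08, against 0.04. The values there ran from -2.85 (SE 1.46) for Slc16a10, a carrier of aromatic amino acids and T3, to 1.41 (SE 1.04) for Slco3a1, an organic anion carrier. Slc16a10 averaged 16.4 CPM in the vehicle samples kept and 2.23 CPM in the Cort samples kept. It passed the filter on low counts through its vehicle samples, so a lower value with Cort was built into its being tested.

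Of the 8 deiodinase genes and regulators of DIO2 protein tested in each dataset, Dio2 alone had P below 0.05 at 2 days. None did at 4 weeks, and over all genes 5.95% and 4.9% passed. Wsb1, March6 and Stub1 belong to the ubiquitin machinery and Usp33 and Usp20 remove ubiquitin from DIO2. At 2 days the lowest log2 fold change was -0.25 for both Usp20 (SE 0.25) and Wsb1 (SE 0.73). At 4 weeks it was -2.81 (SE 1.61) for Stub1 and the highest was 0.50 (SE 0.60) for Usp20. Stub1 averaged 9.76 CPM in the vehicle samples kept and 1.35 CPM in the Cort samples kept. It passed the filter on low counts through its vehicle samples, so its lower value is no support. Medians were -0.08 and 0.02.

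Of 15 receptors and nuclear partners tested, none had P below 0.05 at 2 days, when values ran from -0.50 (SE 0.39) for Rxrg, a retinoid X receptor, to the 0.66 of Hr. At 4 weeks 2 were lower at that threshold, which 4.9% of all genes passed, and Hr, tested only through its Cort samples, is left out of the count. Ncor1, a corepressor of the unliganded receptor, had a log2 fold change of -0.90 (SE 0.31, edgeR Padj = 0.939) and passed P below 0.01, as did 1.06% of all genes. Med1, a coactivator subunit, had -1.17 (SE 0.50, edgeR Padj = 0.993), the lowest of the list. None of these passed Padj below 0.1, and the medians were -0.01 and -0.05.

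Among 7 T3-responsive genes tested, Ucp2, a mitochondrial carrier, was higher at 2 days (log2 fold change 0.36, SE 0.15, edgeR Padj = 0.775). It passed the unadjusted threshold, as did 5.95% of all genes. All 7 had values above 0, as did 52.1% of all genes. Klf9 is among these 7 and is also in the list of glucocorticoid-induced genes below, so the lists are not separate. The smallest was 0.0015 for Shh. At 4 weeks 4 of 7 had values above 0, against 51.9% of all genes, and Shh was lowest at -0.62 (SE 1.38). Hr, tested there only through its Cort samples, is among these 4 and counts toward the 4 week median. Medians were 0.10 and 0.21. Of 6 genes of the hypothalamic-pituitary-thyroid axis tested at 2 days, 2 had P below 0.05, both lower, against 5.95% of all genes. They were the TRH-degrading ectoenzyme Trhde (-1.26, SE 0.54, edgeR Padj = 0.800) and the TRH receptor Trhr (-1.04, SE 0.46, edgeR Padj = 0.812). Trh itself had 0.02 (SE 0.54) at 2 days and 1.90 (SE 1.56) at 4 weeks, and Tshr, the thyrotropin receptor, had the lowest 4 week value at -1.23 (SE 0.95). Medians of the axis list were -0.81 at 2 days and 0.97 at 4 weeks, against 0.02 and 0.04 over all genes. Above 0 were 1 of 6 at 2 days, against 52.1% of all genes, and 4 of 5 at 4 weeks, against 51.9%.

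Glucocorticoid-induced genes served as a positive comparison for the treatment. At 2 days 1 of 14 tested passed Padj below 0.1, against 0.065% of all genes, namely Fam107a (log2 fold change 0.97, SE 0.14, edgeR Padj = 0.00359). Fkbp5, a cochaperone of the glucocorticoid receptor, had 1.57 (SE 0.35, edgeR Padj = 0.263). Mt1, Mt2 and Cdkn1a had 0.63, 0.90 and 1.48, each with P below 0.01 and edgeR Padj above 0.1. In all, 5 of the 14 had P below 0.01, against 1.47% of all genes. At 4 weeks none of 13 passed Padj below 0.1, nor did any of all 11211 genes. The values were 1.44 (SE 0.25, edgeR Padj = 0.1001) for Fam107a and 1.25 (SE 0.41) for Mt2. The highest values were 1.85 (SE 0.77) for Sult1a1 at 2 days and 2.66 (SE 1.29) for Zbtb16 at 4 weeks, and the lowest were -0.74 (SE 0.87) for Pdk4 and -1.21 (SE 1.63) for Nfkbia. List medians were 0.77 and 1.22.

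**Figure D5:**
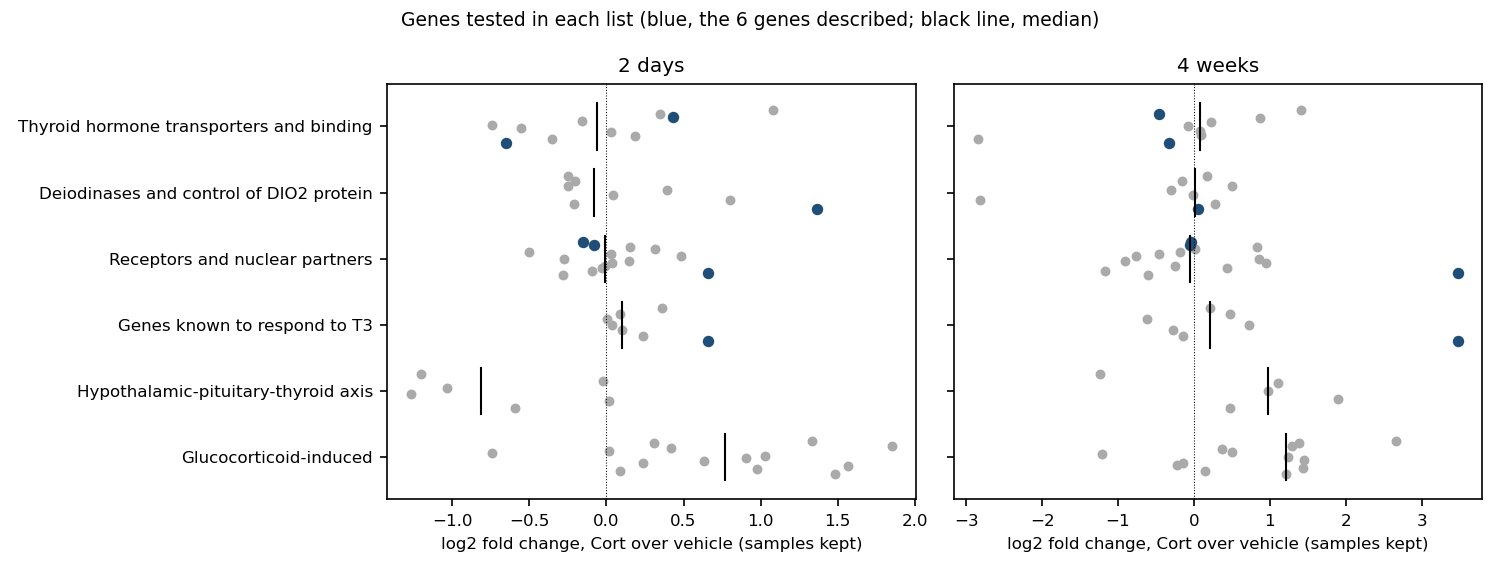
Log2 fold change of Cort over vehicle in the samples kept for every gene tested in 6 lists, with the median of each list as a black line and the genes described above in blue. Dio2 was the highest of the deiodinase list at 2 days (1.36) and Hr the highest of the receptor list at 4 weeks (3.48).

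The genes whose levels followed each member most closely were found after removing the mean of each treatment group, over all 10 samples of a dataset. At 2 days the comparison covered 9539 other genes that reached 10 counts in all 10 samples. Dio2 was most like Sub1 (r = 0.961), Agrp (0.957), Cxcl12 (0.956), Prdx6 (0.955) and Cited1 (0.952). The median r of Dio2 was 0.71 with 9 tanycyte markers, 0.51 with 10 astrocyte markers and 0.01 with 8 neuronal markers. That of Crym with the tanycyte markers was 0.61. Thrb went the other way, with a median r of -0.67 with the tanycyte markers, and was most like Bcl9 (0.948), Syn2 (0.947) and Shisa6 (0.932). The leading matches were Grik2, Rabgef1 and Iqsec3 for Slco1c1 (0.953 to 0.923), Mat2a, Hist1h1c and Rpl18 for Crym (0.975 to 0.949), Net1, Tsg101 and Usp6nl for Thra (0.969 to 0.902) and Zfp617, Pibf1 and Crabp1 for Hr (0.909 to 0.904).

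At 4 weeks 5611 other genes could be compared and Dio2, Thra and Thrb had enough counts. Dio2 was most like Mettl16 (r = 0.874), Adam22 (0.871), Agtpbp1 (0.869), D430041D05Rik (0.868) and Ubr1 (0.860). Its median r was 0.17 with 6 tanycyte markers, 0.04 with 6 astrocyte markers and 0.24 with 8 neuronal markers. Thra was most like Anxa5, Shank2 and Adcy5 (0.913 to 0.905) and Thrb like Sec23b, Sptbn1 and Ctnnd2 (0.963 to 0.920). None of the 5 genes nearest to Dio2 at 2 days was among the 5 at 4 weeks. These values rest on 10 samples that share depth and dissection, and include the samples set aside.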

How the data were processed

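The authors mapped single-end reads to GRCm38 with Rsubread and assigned them with featureCounts, and they deposited the raw count of every gene per sample. Annotation release and strand setting are not given in the sources used here. The authors' deposited normalized signal (counts over a DESeq2 size factor), log2 fold changes, Wald score and p-values were not used. In 5 of the 7 normalized columns at 2 days the values match the raw counts of another column. CPM was computed here from the deposited counts with edgeR's TMM scaling.

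Columns were placed in groups by the study's sample list and carry no replicate numbers. No pair of samples within a group agreed within sampling noise, and pairs from different groups were not compared. The labels do not state separate animals per sample, so p-values measure only the spread between these samples. Comparisons used edgeR 4.0.16 (quasi-likelihood, robust, 2-sided, R 4.3.3) with Benjamini-Hochberg adjustment over all genes, a call at Padj below 0.1, and a prior count of 2 for log2 CPM. Alternatives used DESeq2 1.42.0, limma 3.58.1, other scalings, filters and samples, and exact permutation tests used Python 3.11.15. The fit was tested on simulated data. Floors cover counting error only.

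Named genes were the 7 members, list genes with Padj below 0.1 or P below 0.01 and each list's extremes, and the 5 (Dio2) or 3 nearest genes by correlation. Others were named after their values were seen. The members and lists were chosen with earlier results of these data known. The values of some genes of the transporter list are not reported here.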

Additional observations from a re-analysis of the deposited data

Results flagged for a closer look

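In 6 of 25 groups of 5 samples, 1 sample stood apart by Dixon's 95% criterion. At 2 days Crym was at 19.7 CPM in Cort sample C08, which the study set aside, against 3.93 to 6.06 CPM in the other Cort samples. Dio3 was at 1.02 CPM in vehicle sample C05 and at 0 in the other vehicle samples, so that any count above 0 would have met the criterion. The other 3 groups of Dio3, all at 0, could not be tested and are not among the 25, so the number of such samples is not set against chance. At 4 weeks Crym was at 43.0 CPM in vehicle sample C04, against 3.67 to 14.5 CPM, and Slco1c1 was at 60.2 CPM in Cort sample C07, against 0.315 to 11.7 CPM. Hr was at 34.0 CPM in vehicle sample C01, against 0 to 3.22 CPM, and Thrb was at 280 CPM in vehicle sample C05, against 88.7 to 117 CPM, both in samples set aside. No interaction of time and Cort passed Padj below 0.1 for the 6 genes tested.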

How the results depend on the processing

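The number of genes called at Padj below 0.1 moved with the test. At 2 days, against 8, it was 52 with DESeq2, 47 with its fold change prior, 25 with DESeq2 on all 10 samples, 2 with all 10 samples and 5 with voom weights. At 4 weeks, against 0, it was 68 with DESeq2, 47 with its prior, 76 with DESeq2 on all 10 samples, 4 with upper quartile scaling, 5 with no filter, 5 with at least 10 counts in every sample, 5 without the robust option, 1 with all 10 samples and 2 with voom weights. The interaction count, against 2, was 67 with DESeq2 and 0 with all 20 samples. Leaving out 1 sample gave 2 to 17 calls at 2 days (17 without Cort sample C06, 2 without vehicle sample C02), 0 to 6 at 4 weeks and 0 to 3 for the interaction.

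Dio2 at 2 days turned to -0.93 (mean log2 CPM) when samples were named as in the normalized table, whose headers mix both treatments of the raw names in each group. With the raw names it kept its direction in every fit run, with a log2 fold change of 1.12 to 1.84 when 1 sample was left out. Its Padj was under 0.1 in DESeq2 without (0.0372) and with the fold change prior (0.0318), with no filter (0.0738), without vehicle sample C04 (0.0949) and without Cort sample C06 (0.0452). Over the samples left out in turn it ran from 0.0452 to 0.999. At 4 weeks Hr kept its direction in every fit that could test it (2.84 to 4.22 when 1 sample was left out), and could not be tested with at least 10 counts in every sample. Hr passed the main filter on low counts only through its Cort samples, so this direction is no support.

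Values near 0 changed sign, and the cause was not tested. At 4 weeks Dio2 was -0.024 with upper quartile scaling, -0.19 with all 10 samples, -0.22 with DESeq2 on these, -0.40 with voom weights and -0.27 to 0.85 with 1 sample left out. Thra was 0.36, 0.34, 0.040 and, with the tanycyte covariate, 0.51, and -0.22 to 0.16 with 1 sample left out. Crym was 0.73 with the covariate and -1.18 to 0.73 with 1 left out, and Thrb -0.20 to 0.15. At 2 days Slco1c1 was -0.060 to 0.67 and Thra -0.18 to 0.0061. In the interaction Thra was -0.014 with upper quartile scaling and -0.15 to 0.24 with 1 left out, Thrb -0.16 with all 20 samples and -0.043 to 0.30, and Crym -0.52 to 1.39. The Thra to Thrb ratio at 4 weeks was 0.72 with all 10 samples and -0.14 to 0.11 with 1 left out, and at 2 days -0.023 to 0.15. The Dio2 to Slco1c1 ratio at 4 weeks was -0.0098 to 1.14 and the Dio2 to astrocyte ratio -0.73 to 0.39. The choices of DESeq2 on all 10 samples, the fit without the robust option and the other sample names were added after the data were seen.

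No paired analysis was possible because the count columns carry no replicate numbers. Depth limits Dio3, and Hr and Crym in the shallower 4 week samples.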
